A study of Mus musculus with 7 samples.

Results

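The genes described here build and reshape the mitochondrial membranes: Mfn1, Mfn2 and Opa1 for fusion, Dnm1l and Fis1 for fission, Oma1 and Yme1l1 for the cleavage of OPA1, and Immt for the folds of the inner membrane. They were chosen by name with earlier results of these data known, as were the gene lists further below. Shares over all probe sets or genes are set beside their counts as a description, not as a test. A probe set is the group of short probes that reports a transcript on the array. Every probe set was taken whose platform annotation gave exactly 1 of these symbols. That rule found all 8 genes among the 12393 genes on the array, through 19 of 22626 probe sets. The values came from the soleus, a postural calf muscle, of mice 6 months old on a mixed C57Bl/6 and 129 background. Wild type mice gave 3 arrays and mice labelled Yin Yang 1 (YY1) knockout gave 4. Yy1 encodes a zinc finger transcription factor. The labels used here give neither the deleted part nor the cells or driver of the deletion. They also do not state whether each array was a separate animal, so the p-values reflect only how these arrays scatter.

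Mitochondria fuse and divide continually. The outer membrane is joined by the mitofusins, MFN1 and MFN2, and the inner membrane by OPA1, a dynamin-related GTPase that also keeps the necks of the cristae narrow. The cytosolic GTPase DRP1, encoded by Dnm1l, constricts and divides the organelle after adaptors in the outer membrane recruit it. The proteases OMA1 and YME1L cut OPA1 into its short forms, and mitofilin, encoded by Immt, is a core subunit of the MICOS complex at the crista junctions. In muscle this machinery shapes the mitochondrial network that lies between and beneath the myofibrils.

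All values are the deposited intensities taken to log2(value + 1), and a log2 fold change is knockout minus wild type on that scale. Array medians lay between 139.1 and 143.2 intensity units. Over all probe sets tested, correlations of log2 values were 0.9955 to 0.9973 within a genotype and 0.9800 to 0.9889 between genotypes. Yy1 was lower in 3 of its 4 probe sets, at 30.7%, 49.2% and 58.8% of wild type, while its dimmest probe set measured 95.9% (adjusted p = 0.711, limma). The brightest probe sets of the muscle fibre markers Ckm, Acta1, Myh7, Tnnt1, Tnni1, Myh2 and Mb measured 14.58 to 15.57 in wild type, near the top of the scale.

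The fusion genes Mfn1, Mfn2 and Opa1 and the cristae gene Immt were lower in knockout soleus, Mfn2 by its brighter probe set only. The fission genes among the 8, Dnm1l and Fis1, did not pass the test. Of fission genes outside the 8, Mtfp1 changed by -1.88 log2 units and Mff did not pass. Of the 19 probe sets, 10 fell and 0 rose at an adjusted p under 0.05 (limma, Benjamini-Hochberg adjustment over all probe sets). These 10 belonged to Mfn1, Mfn2, Opa1, Oma1 and Immt. Over all probe sets, 14.3% fell and 14.3% rose, 28.6% together. The median log2 fold change was -0.29 over the 19 probe sets and 0.0069 over all. The groups did not overlap, with knockout lower, in 12 of the 19, against 17.9% of all probe sets, and with knockout higher in 0, against 18.4%. At an unadjusted p under 0.05 (limma), 11 of the 19 fell and 0 rose. The shares over all probe sets at that threshold are not given here, so these counts have no reference. Whether the fusion genes as a group differed from the fission genes in their change was not tested.

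In whole muscle, fewer cells of a type and less RNA per cell cannot be told apart, so other markers are given beside these results, each gene by its brightest probe set on average. Read that way, 15.5% of all 12393 genes fell and 16.3% rose. Of 10 reference genes of mitochondrial content (porins, import subunits and citrate synthase), 6 fell and 0 rose, with a median of -0.29. The smallest p were those of Timm50 (-0.40), Cs (-0.36) and Tomm40 (-0.36). This median is over genes, while the -0.29 given above is over all 19 member probe sets, so the 2 values are unlike measures. By brightest probe set, 5 of the 8 members fell and 0 rose, and their changes ran from -1.04 (Mfn1) to 0.11 (Fis1). The summed intensity of all 10 reference genes was 89367 to 92876 in wild type and 70543 to 79687 in knockout. The number that rose was 1 under some alternatives. Muscle fibre markers summed to 272369 to 282015 in wild type and 265113 to 277520 in knockout. They read near the top of the scale, so their sum may not follow fibre content. Of the 7, 2 were higher, Tnni1 (0.40) and Tnnt1 (0.21), and 3 lower, Myh2 (-0.46), Mb (-0.41) and Ckm (-0.21). The number higher was 1 without wild type array 2 or 3 or knockout array 1 or 2, and 3 without wild type array 1. Of 7 endothelial markers, 6 fell (sum 3650 to 4092 in wild type, 1879 to 2010 in knockout). All 7 macrophage markers rose (3171 to 3845 against 6887 to 11304), as did 3 of 5 fibroblast markers (16098 to 19195 against 20108 to 29101). Of the others, 1 adipocyte marker rose and 1 fell of 3, 1 of 3 Schwann cell markers fell (744.2 to 991.5 against 288.7 to 518.2; 2 without wild type array 2), and 2 of 4 satellite cell markers rose (1 among probe sets above the median level). Of 3 blood cell markers 1 fell, and 0 without wild type array 1 or 3 or knockout array 2. The lowest intensity of any array was 11.3, so no marker was at 0, but this does not show that each marker was detected. Some had dim mean log2 values in wild type, such as Hba-a1 (4.91), Slc4a1 (5.01), Pax7 (5.60) and S100b (5.74). The part of cell composition or of mitochondrial content in the changes of the 8 genes was not tested.

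**Figure D1:**
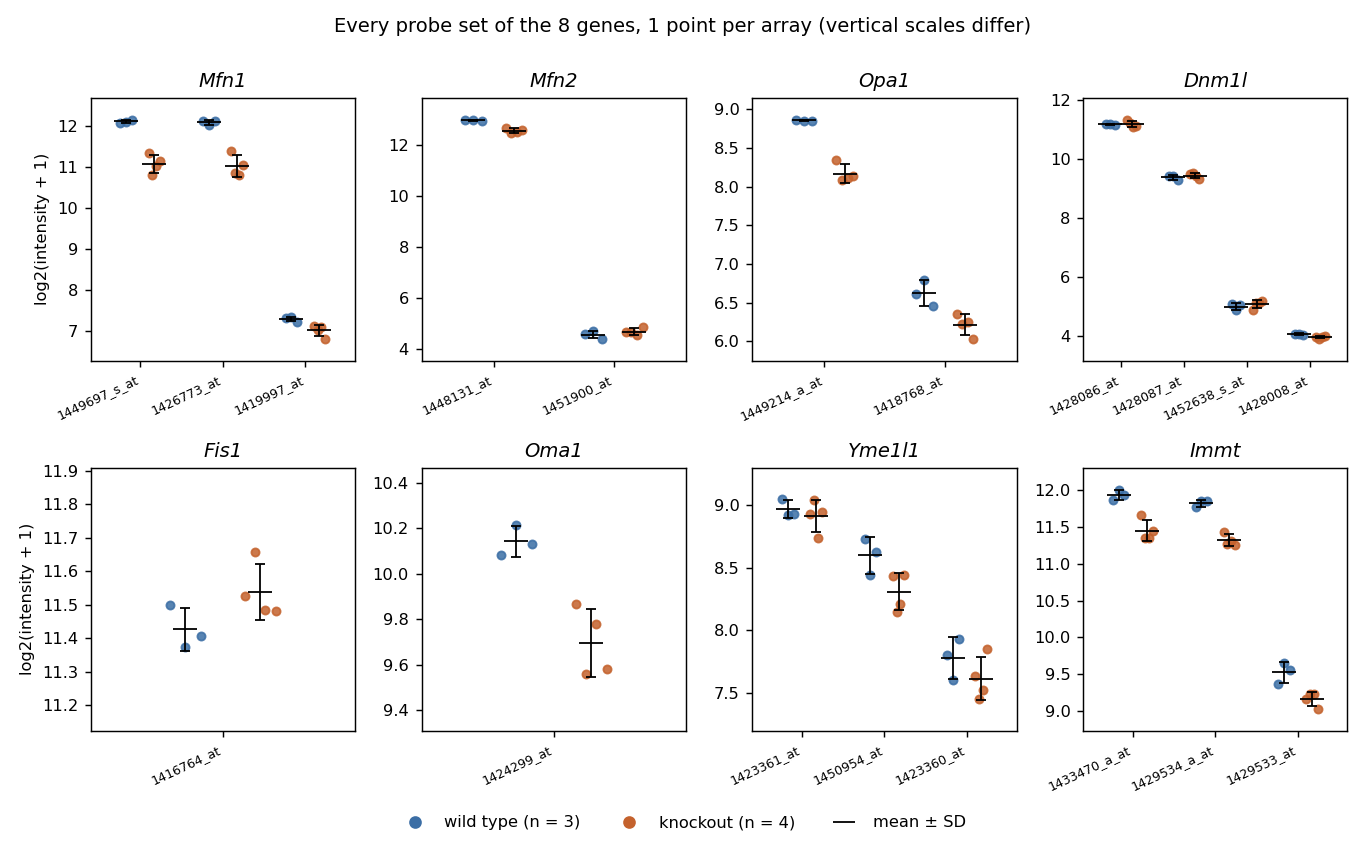
Log2(intensity + 1) of every probe set of the 8 genes, 1 point per array, in wild type (blue, n = 3) and knockout (orange, n = 4), with mean ± SD as black bars; each panel has its own vertical scale, and heights of different probe sets are not comparable. The orange points lie wholly below the blue ones in all 3 probe sets of Mfn1 and of Immt and both of Opa1. The same holds for the bright one of Mfn2, the one of Oma1 and, narrowly, Dnm1l 1428008_at and Yme1l1 1450954_at. The points of Fis1 and of the 2 brighter probe sets of Dnm1l overlap.

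Since the knockout concerns a DNA-binding factor, the promoters of the 8 genes were searched for short recognition letters of YY1 and of 3 factors or families linked to mitochondrial genes. All 8 genes matched the RefSeq promoter table (GRCm38.p6), with 12 windows that run from 250 bases before to 50 after a transcript start. On both strands, AANATGG (YY1) stood in 1 gene, CCGGAAG (ETS factors such as GABPA) in 5, GCATGCG (NRF1) in 1 and AAGGTCA (ERR and other nuclear receptors) in 0. Among all 32851 windows of 300 bases, 16.1% held the YY1 letters, 8.86% the ETS letters, 3.58% the NRF1 letters and 4.72% the ERR letters. These are shares of windows, while the counts before them are of genes, some with several windows, so they are not directly comparable. The gene with the YY1 letters was Mfn1, at chr3:32529373-32529379, with its first base 109 bases before the transcript start of that window and 70 before the annotated gene start at 32529443. An ETS match followed at chr3:32529438-32529444, across the annotated gene start. Opa1 held the NRF1 letters on both strands, overlapping by all but 1 base, 58 bases before the transcript start of its window and across the annotated gene start at 29579281. Fis1 held the ETS letters 18 bases before the start of its first window and 20 bases after the start of its second. The other ETS matches were in Yme1l1, Immt and Dnm1l. The matches describe letters in these windows, and no binding was measured. Stretches of 100 bases on the plus strand are shown, for the gene that fell most, for Opa1 and for a fission gene that did not pass the test, with the matched letters in capitals. They lie, in that order, at chr3:32529345-32529444, chr16:29579184-29579283 and chr5:136953164-136953263.
Mfn1: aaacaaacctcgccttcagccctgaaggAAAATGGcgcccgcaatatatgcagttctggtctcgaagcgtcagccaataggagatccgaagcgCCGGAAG
Opa1: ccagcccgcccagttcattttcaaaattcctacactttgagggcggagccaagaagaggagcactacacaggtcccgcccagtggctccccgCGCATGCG
Fis1: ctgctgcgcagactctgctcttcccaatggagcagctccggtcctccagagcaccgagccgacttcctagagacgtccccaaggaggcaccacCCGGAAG

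Mfn1, the mitofusin that tethers and fuses outer membranes, fell most. Its brightest probe set, 1449697_s_at, read 12.09, 12.12 and 12.16 in wild type arrays 1 to 3 and 11.34, 10.81, 11.03 and 11.15 in knockout arrays 1 to 4. The lowest wild type array stood 0.76 log2 units above the highest knockout array, while the wild type arrays spanned 0.066 units. The log2 fold change was -1.04 (SE 0.11, adjusted p = 0.000335, limma), which left 48.5% of the wild type signal. The size of this change was exceeded by 2.96% of all probe sets. A second bright probe set, 1426773_at, read 12.12, 12.03 and 12.14 in wild type and 11.40, 10.86, 10.81 and 11.05 in knockout. It changed by -1.07 log2 units (SE 0.13, adjusted p = 0.000635, limma). The 2 bright probe sets thus differed by 0.02 log2 units in their change. The third, 1419997_at, was much dimmer, with wild type arrays at 7.29 ± 0.06 (SD, n = 3) and knockout arrays at 7.01 ± 0.14 (SD, n = 4). Its log2 fold change was -0.28 (SE 0.08, adjusted p = 0.0346, limma), and leaving out any 1 wild type array ended the call (adjusted p = 0.102, 0.111 and 0.0599 for arrays 1, 2 and 3), as did leaving out knockout array 2 (0.0684). A suffix _s_at marks a probe set whose probes can match more than one transcript.

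Mfn2, the second mitofusin, which also links mitochondria to the endoplasmic reticulum, fell by less. Its bright probe set, 1448131_at, read 12.97, 12.98 and 12.93 in wild type and 12.67, 12.46, 12.50 and 12.59 in knockout. The groups stood 0.26 log2 units apart. The log2 fold change was -0.40 (SE 0.06, adjusted p = 0.00208, limma), or 75.7% of wild type. A dim probe set, 1451900_at, read 4.41 to 4.70 in wild type and 4.56 to 4.87 in knockout, where the groups overlapped (log2 fold change 0.13, 95% confidence interval -0.09 to 0.34, adjusted p = 0.366, limma). Only 11.4% of all probe sets had a mean level at or below this one. Averaging both probe sets ended the call for the gene, at -0.14 (adjusted p = 0.165, limma).

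Opa1, of inner membrane fusion and crista shape, was tightly grouped in wild type in its brighter probe set only. Its brighter probe set, 1449214_a_at, read 8.86, 8.85 and 8.85 in wild type arrays and 8.35, 8.08, 8.11 and 8.14 in knockout arrays. All knockout arrays were at least 0.50 log2 units below every wild type array. The log2 fold change was -0.69 (SE 0.07, adjusted p = 0.000299, limma), which left 62.1% of the wild type signal. The dimmer probe set, 1418768_at, read 6.62, 6.79 and 6.46 in wild type and 6.35, 6.23, 6.25 and 6.04 in knockout. It fell by 0.41 log2 units (SE 0.10, adjusted p = 0.0151, limma), and this call was lost without wild type array 2 (-0.32, adjusted p = 0.0603).

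The fission GTPase gene Dnm1l did not pass the test in any of its 4 probe sets. The brightest, 1428086_at, read 11.17, 11.17 and 11.14 in wild type and 11.31, 11.20, 11.05 and 11.12 in knockout, so the wild type values lay inside the knockout range. Its log2 fold change was 0.01 (95% confidence interval -0.15 to 0.17, adjusted p = 0.922, limma). The next, 1428087_at, had wild type arrays at 9.36 ± 0.08 (SD, n = 3) and knockout arrays at 9.43 ± 0.10 (SD, n = 4), for a change of 0.06 (95% confidence interval -0.10 to 0.22). The dim probe sets 1452638_s_at and 1428008_at had log2 fold changes of 0.08 and -0.10. In 1428008_at the knockout arrays lay just below the wild type arrays, by 0.01 log2 units, but its mean level was among the lowest 0.486% of all probe sets, and the adjusted p was 0.194.

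Fis1, an outer membrane protein named for its role in yeast fission, had 1 probe set. It read 11.50, 11.38 and 11.41 in wild type and 11.53, 11.66, 11.49 and 11.48 in knockout, and the groups overlapped. The log2 fold change was 0.11 (95% confidence interval -0.04 to 0.26, adjusted p = 0.241, limma). For both fission genes the intervals of the bright probe sets leave out a fall of the size seen in Mfn1, Opa1 or the bright probe set of Mfn2.

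Oma1, the stress-activated protease that cleaves OPA1, was lower. Its single probe set, 1424299_at, read 10.08, 10.22 and 10.13 in wild type and 9.87, 9.56, 9.78 and 9.58 in knockout. The groups stood 0.21 log2 units apart, and the log2 fold change was -0.44 (SE 0.09, adjusted p = 0.00549, limma), or 73.5% of wild type. Yme1l1, of the constitutive protease, did not pass in any of 3 probe sets. The brightest, 1423361_at, read 9.05, 8.92 and 8.93 in wild type and 8.93, 9.04, 8.74 and 8.95 in knockout (log2 fold change -0.05, 95% confidence interval -0.23 to 0.13, adjusted p = 0.659, limma). In 1450954_at the groups did not overlap, by a margin of 0.0031 log2 units, and the log2 fold change was -0.29 (95% confidence interval -0.52 to -0.06, adjusted p = 0.0608, limma). This probe set did pass without wild type array 2 (-0.37, adjusted p = 0.0461) and among probe sets above the median level (adjusted p = 0.0422). The third, 1423360_at, measured -0.16 with overlapping groups.

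Immt, of the MICOS scaffold, fell in all 3 probe sets. The brightest, 1433470_a_at, read 11.87, 12.01 and 11.93 in wild type and 11.66, 11.35, 11.36 and 11.45 in knockout, with no overlap. Its log2 fold change was -0.48 (SE 0.08, adjusted p = 0.00331, limma), or 71.5% of wild type. The others, 1429534_a_at and 1429533_at, changed by -0.51 (SE 0.06, adjusted p = 0.000625, limma) and -0.36 (SE 0.08, adjusted p = 0.0112, limma). The changes of the 3 probe sets of Immt spanned 0.15 log2 units, while those of Mfn1 spanned 0.79 and those of Mfn2 0.53.

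**Figure D2:**
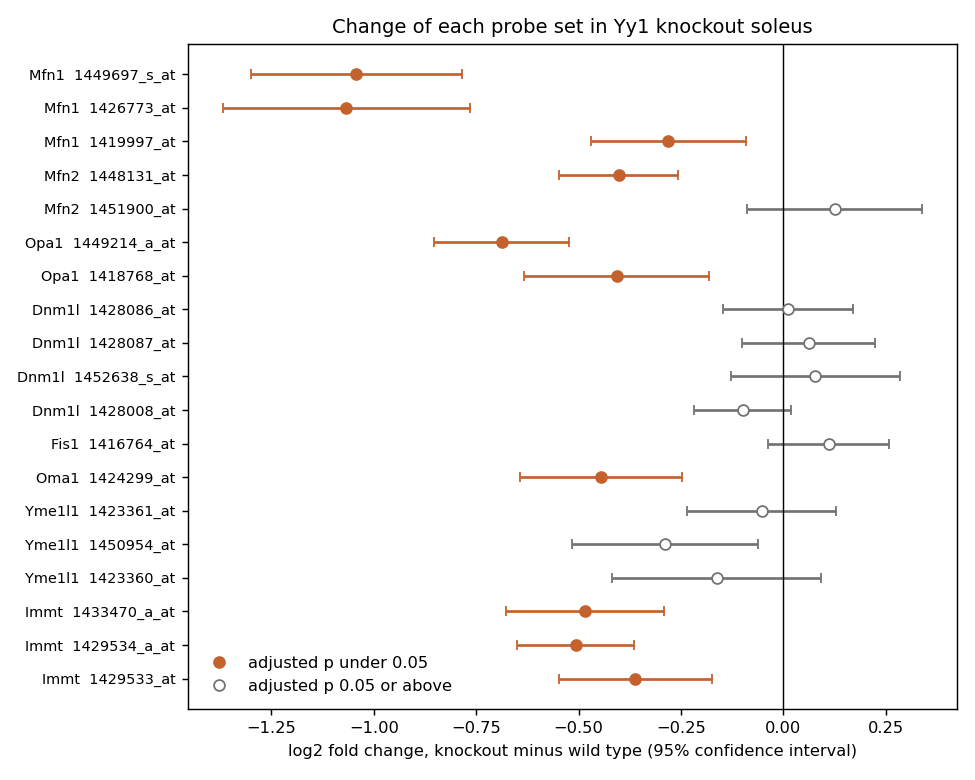
Log2 fold change (knockout minus wild type) of each of the 19 probe sets, with 95% confidence intervals from limma; filled orange points have an adjusted p under 0.05 and open grey points do not. The filled points run from -1.07 for Mfn1 to -0.28 for its dim probe set, and all points of Dnm1l, Fis1 and Yme1l1 are open.

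Partners in the same step were compared within each array, as the difference of log2 values of their brightest probe sets, over 4 pairs. Mfn1 minus Mfn2 read -0.87, -0.86 and -0.77 in wild type and -1.33, -1.65, -1.47 and -1.44 in knockout, with no overlap. This difference was 0.64 log2 units lower in knockout. The two-sided exact permutation p was 0.0286, the smallest that 3 arrays against 4 can give, and 0.0571 after adjustment over the 4 pairs. Opa1 minus Immt was lower in knockout by 0.20 log2 units, also with no overlap (exact permutation p = 0.0286, adjusted 0.0571). Oma1 minus Yme1l1 was lower by 0.39, with 1 wild type array inside the knockout range (exact permutation p = 0.0857, adjusted 0.114). Dnm1l minus Fis1 was lower by 0.10, with overlapping groups (exact permutation p = 0.229, adjusted 0.229). No pair passed an adjusted p of 0.05. With 35 divisions and 4 pairs, a pair that separates completely cannot pass unless others reach the smallest p too, so the result neither shows unequal change within a pair nor speaks against it.

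**Figure D3:**
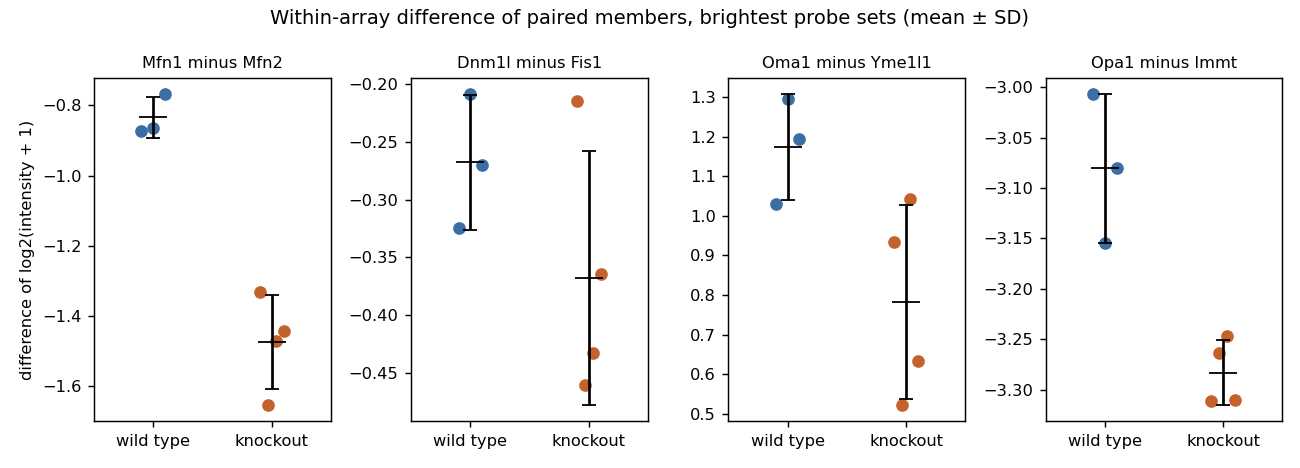
Difference of log2(intensity + 1) between paired genes within each array, by the brightest probe set of each, in wild type (blue, n = 3) and knockout (orange, n = 4), with mean ± SD; vertical scales differ and do not start at 0. The groups separate for Mfn1 minus Mfn2 and for Opa1 minus Immt and overlap in the other pairs.

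Other genes of membrane dynamics were read by the brightest probe set of each. Of 33 measured in 4 lists, 13 fell and 2 rose, with a median log2 fold change of -0.13. Over all genes on the array the shares were 15.5% and 16.3%, with a median of 0.013. The number that fell was between 9 and 13 under the alternatives.

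Among 10 regulators of fusion and fission, 3 fell and 1 rose (median -0.15). Mtfp1, an inner membrane protein that promotes fission, read 11.00, 11.22 and 10.97 in wild type and 9.84, 8.54, 9.39 and 8.95 in knockout. It fell by 1.88 log2 units (SE 0.26, adjusted p = 0.00118, limma), to 27.1% of wild type. Miga2, an outer membrane protein that promotes fusion, changed by -0.74 (SE 0.11, adjusted p = 0.00171, limma). Dnm2, of the dynamin best known from endocytosis, changed by -0.20 (adjusted p = 0.029, limma), a call lost without any 1 of the wild type arrays or of knockout arrays 1, 2 and 4 (adjusted p = 0.056 to 0.0801), and its 6 other probe sets ranged from -0.16 to 0.16. Slc25a46, an outer membrane protein, rose by 0.26 (SE 0.05, adjusted p = 0.00685, limma), while its other probe set measured -0.05 and the average of both did not pass (adjusted p = 0.116). The DRP1 receptor gene Mff, named after its values were seen, had wild type arrays at 12.66 ± 0.04 (SD, n = 3) and knockout arrays at 12.54 ± 0.13 (SD, n = 4; adjusted p = 0.293, limma).

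Of 6 genes of inner membrane proteases and prohibitins, 3 fell and 0 rose (median -0.21). Parl, a rhomboid protease, read 10.96, 10.99 and 11.04 in wild type and 10.41, 10.25, 10.17 and 10.42 in knockout. Its log2 fold change was -0.69 (SE 0.07, adjusted p = 0.00034, limma), with no overlap. Phb2, a prohibitin that scaffolds the inner membrane, changed by -0.30 (adjusted p = 0.0205, limma) and Afg3l1, of an m-AAA protease subunit, by -0.24 (adjusted p = 0.0497, limma). Only 1 gene of this list fell without wild type array 1, 2 or 3: Phb2 then had adjusted p = 0.0519 to 0.0741 and Afg3l1 0.0856 to 0.149. Phb2 also lost its call without knockout array 2 (0.055), and Afg3l1 without knockout array 3 (0.107) or 4 (0.104) and under median centring (0.0576) or quantile normalization (0.0511).

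Of 14 genes of MICOS, cristae and cardiolipin, 6 fell and 1 rose (median -0.11). Samm50, an outer membrane partner of MICOS, changed by -0.65 (SE 0.09, adjusted p = 0.000819, limma). The MICOS subunit genes Apool and Chchd3 changed by -0.57 (SE 0.06, adjusted p = 0.000414, limma) and -0.45 (SE 0.07, adjusted p = 0.00232, limma). The other MICOS subunit genes measured, named after their values were seen, did not pass: Chchd6 at -0.05, Micos13 at -0.01 and Micos10 at 0.03. Mtx1, a metaxin of the outer membrane, read 10.49, 10.51 and 10.39 in wild type and 11.06, 11.18, 11.29 and 10.99 in knockout. It rose by 0.67 log2 units (SE 0.08, adjusted p = 0.000578, limma), and its other probe set measured 0.40. Its partner gene Mtx2, also named after its values were seen, changed by -0.56 (SE 0.11, adjusted p = 0.00494, limma). Without knockout array 1 the number that rose in this list was 2. Of the 3 transport adaptor genes measured, Rhot2, which links mitochondria to motor proteins, changed by -0.52 (SE 0.08, adjusted p = 0.00208, limma), and Rhot1 and Trak1, named after their values were seen, measured 0.08 and -0.09 without passing.

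**Figure D4:**
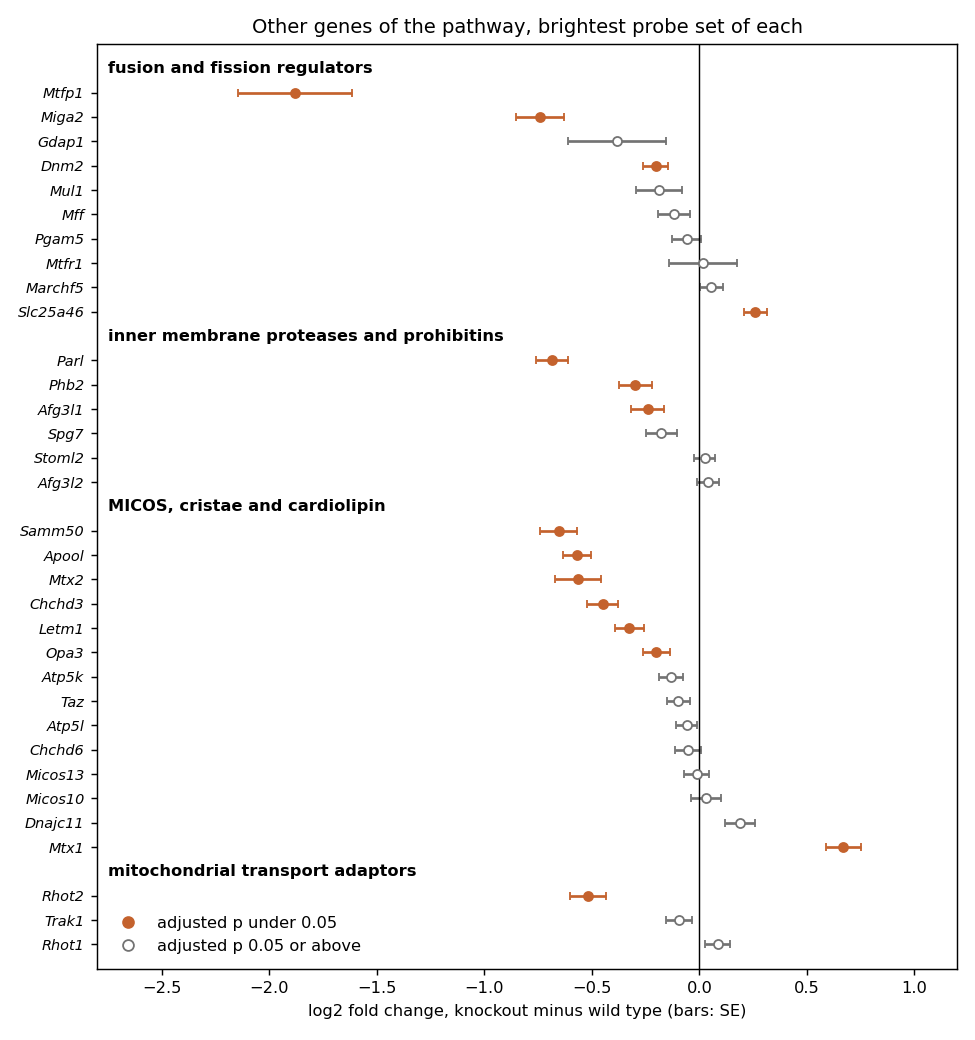
Log2 fold change (knockout minus wild type) with SE of 33 other genes of mitochondrial membrane dynamics, by the brightest probe set of each and grouped by list; filled orange points have an adjusted p under 0.05. Mtfp1 lies farthest to the left at -1.88, and Mtx1 and Slc25a46 are the filled points to the right of 0.

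The genes whose pattern over the 7 arrays was most like that of Mfn1 were Clybl (Pearson r = 0.999), Mlf1 (0.998) and Ginm1 (0.998). For Opa1 they were Echs1, Ech1 and Acad11, at r = 0.999 or above. All 6 were lower in knockout, with log2 fold changes of -2.57 to -0.90. The arrays fall into the 2 genotypes, so such correlations mostly follow the difference between them: 727 of 12385 other genes had r above 0.95 with Mfn1 and 739 with Opa1.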

How the data were processed

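Biotin-labelled cRNA from total RNA of 7 soleus samples was hybridised to one-colour Affymetrix arrays, per the labels' protocols. The authors deposited 1 intensity per probe set and array on a linear scale, and per the submitters' processing notes these come from RMA (background correction, normalization and probe summary); the labels used here do not name its software or version. Arrays have no read depth, so precision rests on how many there are. Scan dates were not used here, so batches were not tested.

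Of 22690 probe sets, 64 controls were left out. Symbols were updated through Entrez identifiers of a RefSeq table, which matched 12369 of 12393 genes. Of the probe sets tested, 20380 had 1 gene symbol, 691 several and 1555 none. Values were taken to log2(value + 1) and fitted with limma 3.58.1 (lmFit, eBayes, two-sided) in R 4.3.3 over all 22626 probe sets with Benjamini-Hochberg adjustment, a threshold of 0.05 and no filter on dim probe sets. The scripts were tested on simulated data.

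The members and lists were chosen with earlier results of these data known. Members were named by every probe set. Of each pathway list, up to 3 genes in each direction with the smallest p were named, by the brightest probe set over the 7 arrays; genes outside that rule are said to be so. Groups came from the sample titles. The replicate numbers do not state a shared animal or litter, so they were not used as pairs. Deviations from the group means of arrays with the same replicate number correlated at 0.048, -0.098 and 0.011. With so few arrays these correlations do not decide whether arrays were paired. No 2 arrays shared more than 1819 values equal in every deposited digit.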

Additional observations from a re-analysis of the deposited data

How the results depend on the processing

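The alternatives were pseudocounts of 16 and 0, probe sets above the median level, median centring, quantile normalization, a trended robust variance model, a single value per gene, the replicate block and leaving out each array. In the 14 alternatives that keep probe sets, 9 or 10 member probe sets fell and 0 rose. All of the 10 that fell in the reported fit did so in 8 of the 14, 9 of them in 4, and 8 of them without wild type array 2 and among probe sets above the median level, where the other 2 were not tested. By 1 value per gene, 4 or 5 of the 8 genes fell in 16 alternatives. In the reported fit 5 fell and 0 rose by the brightest probe set, against 15.5% and 16.3% of all genes. The shares of all genes under each alternative are not given here. Of 277 member values recomputed, 265 kept their direction and their side of the threshold. The changes of sign were in values that had not passed. Dnm1l 1428086_at ranged from -0.036 (without knockout array 1) to 0.050 (without knockout array 3). By its own values, Yme1l1 1423361_at ranged from -0.095 (without knockout array 2) to 0.0065 (without knockout array 3). The mean of the probe sets of Yme1l1 changed by -0.17. The cause of the changes of sign was not tested. Among the 4 pathway lists, 1 gene rose with the mean of a gene's probe sets, against 2. Replicate number 4 exists only in knockout, so with the replicate number as a block knockout array 4 adds nothing to the change. That alternative compares 3 arrays with 3, and its fold changes equal those without knockout array 4. Under it 2440 probe sets rose and 2620 fell, against 3240 and 3237, and 10 member probe sets fell. Mfn1 1419997_at did not pass (-0.21, adjusted p = 0.097, limma) and Yme1l1 1450954_at did (-0.33, adjusted p = 0.0249, limma). Dnm2 and Afg3l1 lost their calls (adjusted p = 0.0993 and 0.176, limma). Leaving out an array lowers the number of divisions, and the pair tests then cannot reach a p under 0.05. A single value per gene gives no count of probe sets. Dim probe sets (Mfn2 1451900_at, Dnm1l 1452638_s_at and 1428008_at) had no detection call, so background may limit their changes.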

Other observations

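Among the knockout arrays, array 1 read highest in 9 of the 10 member probe sets that fell, and arrays 2 and 3 tied in the other. Over all 3237 probe sets that fell, array 1 was the highest knockout array in 52.5%. Yy1 1422569_at read 8.41 in knockout array 1 and 7.83 to 8.10 in the other knockout arrays, while Yy1 1435824_at read 8.39 in array 1 and 8.24 to 8.48 in the others. The 10 probe sets belong to 5 genes of the same libraries, and whether the order of the arrays bears on the remaining Yy1 was not tested.

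In these genes the knockout arrays also varied more: the SD was larger in knockout than in wild type for 16 of 19 member probe sets, against 59.3% of all probe sets. The 19 probe sets belong to 8 genes on the same 7 arrays, so they are not independent. Each SD rests on only 3 or 4 arrays, and the difference in spread was not tested.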
